A study of Homo sapiens with 8 samples.

Results

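Chaperones fold and refold proteins, and the ubiquitin-proteasome system tags proteins and degrades them, so together they keep the protein content of a cell in order. The cytosolic chaperones include HSP70 proteins with their DNAJ partners, HSP90, the small heat shock proteins and the CCT chaperonin, a double ring that folds actin and tubulin. Ubiquitin is passed from an activating to a conjugating enzyme and, with the help of a ligase, to the target, and deubiquitinases take it off again. The proteasome is a core barrel of alpha and beta subunits capped by a regulatory particle with an ATPase ring. Human embryonic stem cells are known for high proteasome activity.

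The genes described here have a listed site of RNA acetylation and a symbol of one of these families. They were chosen by symbol alone: names beginning with HSP, DNAJ, CCT, PSM, UBE2, UBE3, USP, UCHL, CUL, FBXO, FBXW or RNF, BAG genes, and TCP1, STIP1 and PARK7. This gave 44 of the 1506 genes with a site and 56 of the 1851 distinct sites. The subsets were 17 chaperone genes with 23 sites, 8 proteasome genes with 9 sites and 19 ubiquitin enzyme genes with 24 sites. USP2-AS1, a noncoding RNA antisense to a deubiquitinase gene, is counted among the ubiquitin enzymes by its name only. PARK7, which encodes the stress protein DJ-1, is counted among the chaperones.

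Sites came from chemical sequencing of N4-acetylcytidine (ac4C), the mark written by the acetyltransferase NAT10, in the established H1 line of human embryonic stem cells. NAT10 KD cells carried an shRNA against NAT10 from a lentivirus with GFP. After 48 h of culture with the virus, GFP-positive cells were enriched and grown on under 0.5 µg/ml puromycin in TeSR-E8. WT cells were grown in another medium (PGM1) on Matrigel, and the labels mention no control shRNA for them, so genotype cannot be told apart from transduction, selection and medium. In each genotype, captured mRNA was reduced with sodium cyanoborohydride (2 libraries) or kept as input (2 libraries), and the labels do not say whether replicates were separate cultures. The data used here were 1 list of sites per genotype, 950 sites in 845 genes for NAT10 KD and 1005 sites in 883 genes for WT. Each site carries a score given by the authors, which orders sites within a list and has no stated formula. No replicate value, read count or conversion level was analysed here, so depth is unknown, every value below is a single list value, and intervals cover counting error only. NAT10 had 0 sites in NAT10 KD and 0 in WT, and its level was not analysed here. Of 12 markers of pluripotent stem cells, 7 had a site in NAT10 KD and 6 in WT, and of 15 markers of other cells 2 and 2, which measures sites and not cell types.

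The sequence around a site could be read at 7 of the 56 sites, those inside a RefSeq promoter window (GRCh38.p14, 250 bases before to 50 after a gene's start). They are shown because they tell which base was listed. Each is given 5′ to 3′ on the strand of the site, with the listed base in capitals.
CCT7, NAT10 KD list, chr2:73234323-73234347, plus strand: gcggcccggtctCggagaagagggg
PSMC5, NAT10 KD list, chr17:63827490-63827514, plus strand: gatggcgcttgaCggaccagagcag
PSME2, NAT10 KD list, chr14:24146593-24146617, minus strand: tagccgggagacCagagatctagcg
RNF167, NAT10 KD list, chr17:4940175-4940199, plus strand: gaattagaatcgCgggaaaatagag
RNF167, NAT10 KD list, chr17:4940278-4940302, plus strand: actattcagctgCgaggggacggga
PSMB2, WT list, chr1:35641492-35641516, minus strand: ctgaggtgctgtCtcaccggtgaga
FBXO30, WT list, chr6:145814665-145814689, minus strand: acggagcgtcgcCgggacagagcgg
The listed base was a C at all 7 sites, and also at all 94 listed sites of any gene that fell inside such a window. Since ac4C is a modified C and the calling of sites is not given, this may follow from the calling. It checks the positions and says nothing about these genes. A G followed the listed C at 5 of the 7 sites, against 51.1% of the 92 listed sites with both neighbours in the window and 30.1% of the 7502 C of the same windows and strands. The trinucleotide CCG, the context known for ac4C, was centred on 1 of the 7 sites (FBXO30), 9.78% of the 92 and 9.44% of the 7502 C. The FBXO30 site was read in the window of EPM2A-DT, 199 bases before that gene's start, and the others in the window of their own gene. These windows lie at gene starts, which are rich in C and G, and no other site of these genes could be read. All 51 sites whose gene has a window lay on the strand of that gene, as did all 1516 such sites of the whole data. How the authors assigned strands and genes to sites is not given, so this agreement may follow from the assignment.

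Both genotypes had the same number of these genes. Of the 44 genes, 26 had a site in NAT10 KD and 26 in WT, a ratio of 1 (95% exact interval 0.558 to 1.79), beside 0.957 for all listed genes. By sites the numbers were 29 and 31, a ratio of 0.935 (0.544 to 1.60). The 26 genes were 3.08% of those in the NAT10 KD list (95% Clopper-Pearson interval 2.02 to 4.48) and 2.94% of those in the WT list (1.93 to 4.28). The intervals overlap almost wholly. Genes with a site in each list numbered 8, of which 4 had a site at the same position in both. A further 18 genes had sites in NAT10 KD only and 18 in WT only. The whole data had 14.7% of 1506 genes in both lists, 41.4% in NAT10 KD only and 43.9% in WT only. The 8 genes in both lists were 30.8% of the genes in NAT10 KD and 30.8% of those in WT, beside 26.3% and 25.1% for all genes. Absence from a list does not show that a base was unacetylated, since a score threshold appears to end each list.

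**Figure D1:**
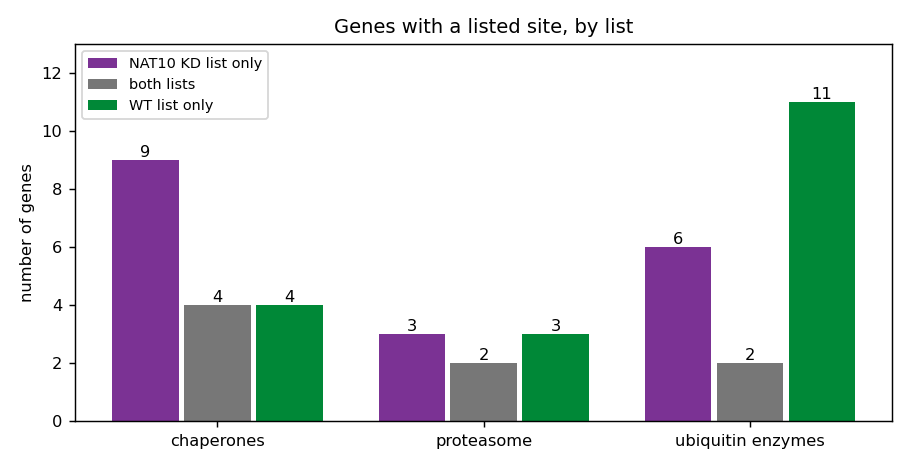
Number of genes with a listed site in each subset, as bars for genes in the NAT10 KD list only, in both lists and in the WT list only. Chaperone genes stood 9, 4 and 4 in these classes and ubiquitin enzyme genes 6, 2 and 11.

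Chaperone and ubiquitin enzyme genes leaned to different sides, with ratio intervals that include 1. Chaperone genes numbered 13 in NAT10 KD and 8 in WT, a ratio of 1.63 (exact interval 0.624 to 4.52). Proteasome genes numbered 5 and 5, a ratio of 1 (0.230 to 4.35). Ubiquitin enzyme genes numbered 8 in NAT10 KD and 13 in WT, a ratio of 0.615 (0.221 to 1.60). All of these intervals include 1. They treat the counts of the lists as separate, so a gene in both lists enters on each side. Chaperone genes in NAT10 KD only numbered 9 and those in WT only 4. For proteasome genes these numbers were 3 and 3, and for ubiquitin enzyme genes 6 and 11. No interval was computed for genes in a single list, so a difference among them was not tested. Over all listed genes the ratio was 0.957, with 41.4% in NAT10 KD only and 43.9% in WT only. Ubiquitin genes under other names, described below, numbered 12 in NAT10 KD and 7 in WT, the opposite order to the ubiquitin enzyme genes. Chaperone genes under other names numbered 9 and 8. The bar plot of genes by list shows the counts in single lists and in both.

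Set against the families as RefSeq lists them, larger shares of the chaperone and proteasome genes than of all genes had a site. A site in either list was found for 18.1% of 94 chaperone genes, 16.0% of 50 proteasome genes and 6.95% of 259 ubiquitin enzyme genes, against 7.08% of all 20056 protein-coding genes. The families were chosen with earlier results of these data known and no interval was computed, so these shares do not show an enrichment. Expression was not analysed here, and whether the families' expression has a part in these shares was not tested. Within the chaperones the chaperonin genes stood at 3 of 12, HSP70 and HSP110 genes at 3 of 15, DNAJ genes at 8 of 45, HSP90 genes at 1 of 3, small heat shock genes at 1 of 7 and BAG genes at 0 of 6. Among proteasome genes, symbols of the regulatory particle's ATPases had 3 of 7 listed, core subunits 3 of 19, its non-ATPase subunits 1 of 14, and activators with assembly factors 1 of 10. All groups in this comparison were formed by symbol alone, so a group can hold genes that share the name and not the function. Ubiquitin enzymes had 3 of 36 UBE2 genes, 1 of 8 cullins, 3 of 46 F-box genes, 5 of 85 RNF genes and 6 of 80 deubiquitinase genes of the USP and UCHL families. UBE3 ligases had 0 of 4. The 1 cullin and the 3 F-box genes were in WT only, counts too small to separate from the split of the other genes.

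**Figure D2:**
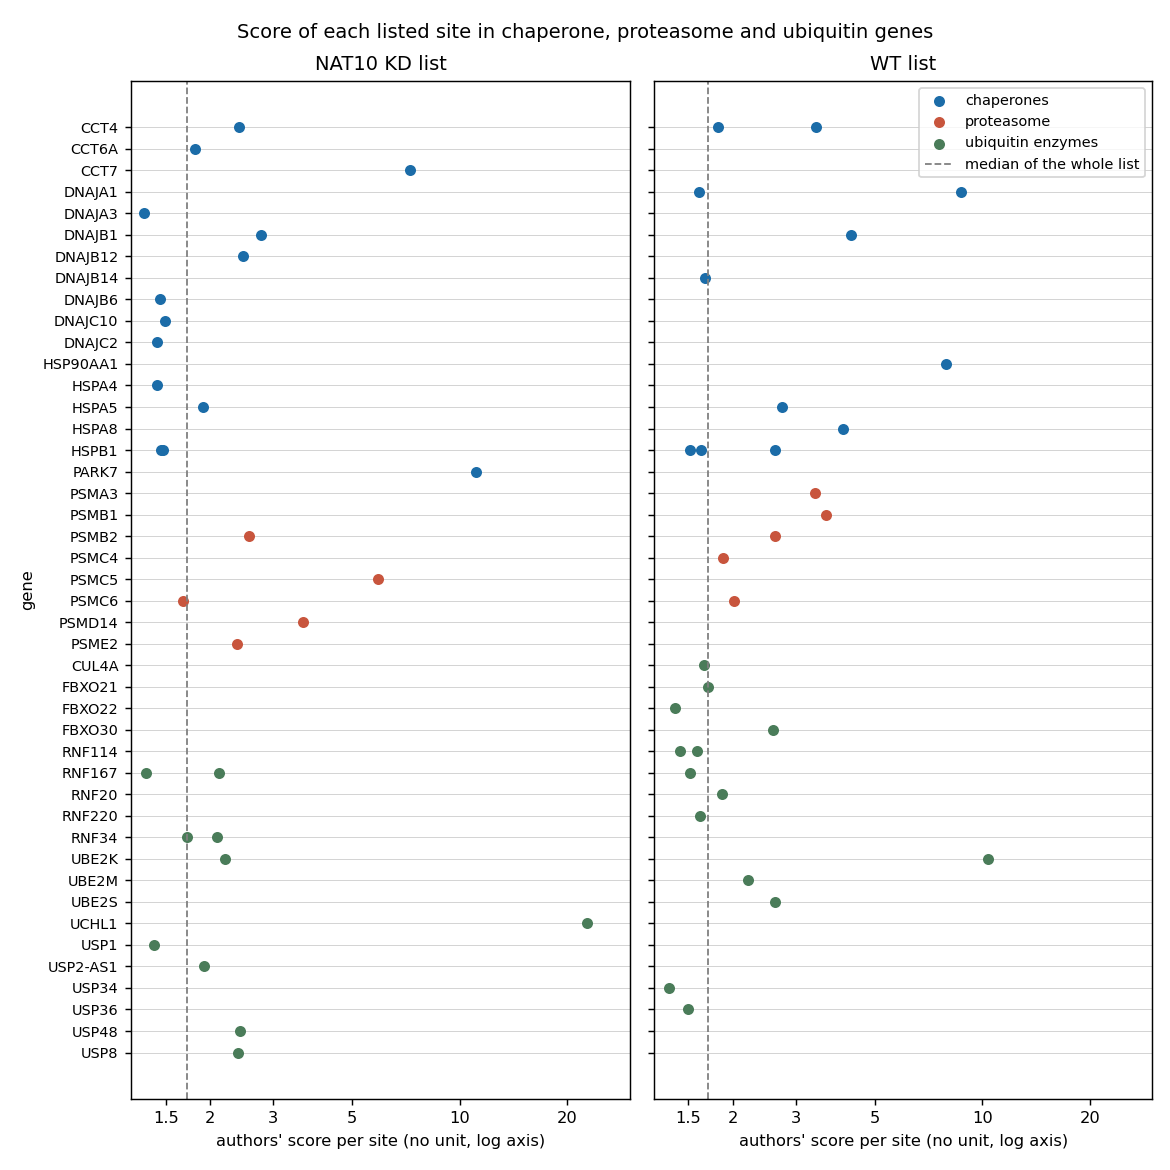
Score given by the authors to each site in the 44 genes (log axis), with the NAT10 KD list in the left panel and the WT list in the right. Points are sites, colours are subsets, and the dashed line is the median of the whole list, 1.72 in NAT10 KD and 1.70 in WT.

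Sites in these genes had median scores above those of their whole lists, by less than the counting error. The median score was 2.09 over 29 sites in NAT10 KD (exact order-statistic interval 1.49 to 2.42) and 1.88 over 31 sites in WT (1.63 to 2.63). Whole-list medians were 1.72 and 1.70. A score of at least 2 was reached by 15 of 29 sites in NAT10 KD, or 51.7% (32.5 to 70.6), against 31.9% of all its sites. In WT 15 of 31 sites did, or 48.4% (30.2 to 66.9), against 33.7% of all its sites. The background share lay just below the interval in NAT10 KD and inside it in WT. The 50 highest sites of each list held 4 of these sites in NAT10 KD and 3 in WT.

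Those 7 sites lay in different genes in each list. UCHL1, a deubiquitinase abundant in neurons, had the highest score of all the members, 22.7 in NAT10 KD, where it ranked 9 (chromosome 4, position 41256990, plus strand). It had no WT site. PARK7 followed at 11.1 and rank 19 in NAT10 KD (chromosome 1, position 7962848, plus strand), also without a WT site. CCT7, a chaperonin subunit, scored 7.26 at rank 27 in NAT10 KD (chromosome 2, position 73234335, plus strand), and the proteasome ATPase gene PSMC5 scored 5.89 at rank 34 there (chromosome 17, position 63827502, plus strand). Their sequences are among those shown above. In WT the highest was UBE2K, a conjugating enzyme that builds ubiquitin chains, with 10.4 at rank 22 (chromosome 4, position 39698384, plus strand). DNAJA1, a cytosolic partner of HSP70, scored 8.70 at rank 25 in WT (chromosome 9, position 33026975, plus strand), and HSP90AA1, the stress-inducible HSP90, 7.92 at rank 27 (chromosome 14, position 102086347, minus strand). Of these 7 genes, UBE2K alone was in both lists, at different positions.

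Among the chaperones, the chaperonin gave sites in CCT4, CCT6A and CCT7. CCT4 had 1 site in NAT10 KD with a score of 2.41, against 2 in WT with 1.81 and 3.43 (chromosome 2, minus strand). The NAT10 KD site and the lower WT site were the same base, position 61876186, and the higher WT site was at 61877434. CCT6A scored 1.81 in NAT10 KD only (chromosome 7, position 56055707).

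The HSP70 system was listed through both its ATPases and its partners. HSPA5, the endoplasmic reticulum chaperone BiP, had the same site in both lists (chromosome 9, position 125241206, minus strand), with scores of 1.91 in NAT10 KD and 2.75 in WT. HSPA8, the constitutive HSC70, was in WT only at 4.07 (chromosome 11, position 123057586, minus strand), and HSPA4, an HSP110-type exchange factor, in NAT10 KD only at 1.41. The HSP40 gene DNAJB1 scored 2.78 in NAT10 KD (chromosome 19, position 14518252) and 4.28 in WT (position 14518299), at sites 47 bases apart on the minus strand. DNAJA1 had a further WT site with 1.60 (position 33037029).

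The other DNAJ genes in NAT10 KD were DNAJB12 (2.46, chromosome 10, position 72335897, minus strand), which sits in the endoplasmic reticulum membrane, DNAJC10 (1.49), a disulfide reductase of its lumen, DNAJB6 (1.45), which holds back aggregation, DNAJC2 (1.41), which works at the ribosome, and the mitochondrial DNAJA3 (1.302, rank 949 of 950). WT held DNAJB14 (1.67), a relative of DNAJB12. The DNAJC10 site lies also within the span of PDE1A and the DNAJC2 site within that of PMPCB. Spans were compared here and below without regard to strand, so such an overlap does not by itself make the gene of a site uncertain.

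HSPB1, the small heat shock protein HSP27, was the gene with the most sites among the 44. It had 2 in NAT10 KD, at 76303075 (1.48) and 76303816 (1.46), and 3 in WT, at 76303074 (2.63), 76303816 (1.51) and 76304082 (1.63), all on the plus strand of chromosome 7. Position 76303816 was the same base in both lists. The first sites of the lists were adjacent bases, which identical-position matching counts as different.

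The proteasome had sites in genes of the core, the ATPase ring, the non-ATPase part of the regulatory particle and the activator. PSMB2, a beta subunit, scored 2.57 in NAT10 KD (chromosome 1, position 35609385) and 2.62 in WT (position 35641504), both on the minus strand and 32119 bases apart. Its WT site was base 23 of the gene span, while the NAT10 KD site lay 76.6% of the way along. PSMC6, an ATPase, had the same site in both lists (chromosome 14, position 52707276, plus strand), with 1.67 in NAT10 KD and 2.01 in WT. NAT10 KD alone held PSMC5, PSMD14 (3.63, chromosome 2, position 161308602, plus strand), the deubiquitinase of the regulatory particle, and PSME2 (2.37, chromosome 14, position 24146605, minus strand), a subunit of the interferon-induced activator. WT alone held the beta subunit gene PSMB1 (3.64, chromosome 6, position 170535277, minus strand), the alpha subunit gene PSMA3 (3.39, chromosome 14, position 58247773, plus strand) and the ATPase gene PSMC4 (1.88, chromosome 19, position 39974325, plus strand). The PSMC5 site lies over the span of FTSJ3 as well.

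Conjugating enzymes came next in the ubiquitin subset. UBE2K scored 2.20 in NAT10 KD (chromosome 4, position 39755726) and 10.4 in WT, at sites 57342 bases apart. UBE2S, which extends chains for the anaphase-promoting complex, scored 2.63 in WT only (chromosome 19, position 55401682, minus strand), over the span of RPL28 as well. UBE2M, which attaches NEDD8 to cullins, scored 2.20 in WT only (chromosome 19, position 58558506, minus strand).

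Ligase genes of the RNF family numbered 2 in NAT10 KD and 4 in WT. RNF167, a membrane-bound RING ligase of the endosomal and lysosomal system, was in both lists, with NAT10 KD sites at 4940187 (2.11) and 4940290 (1.32) and a WT site at 4944746 (1.52) on chromosome 17, plus strand. The NAT10 KD sites were bases 96 and 199 of the gene span, and the WT site lay 90.7% along it. RNF34 had 2 sites in NAT10 KD, at 121400211 (1.72) and 121420322 (2.09) on chromosome 12, plus strand, of which the second also lies over KDM2B. RNF114 had 2 in WT, at 49941664 (1.58) and 49945392 (1.42) on chromosome 20, plus strand. RNF20 (1.87, chromosome 9, position 101554786, plus strand), a ligase for histone H2B, and RNF220 (1.61) were in WT only. So were the F-box genes FBXO30 (2.59, chromosome 6, position 145814677, minus strand), FBXO21 (1.70, chromosome 12, position 117172484, minus strand) and FBXO22 (1.38), and the cullin gene CUL4A (1.66). The FBXO30 site lies over the noncoding EPM2A-DT as well and the FBXO22 site over NRG4.

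Beside UCHL1, the deubiquitinase genes in NAT10 KD were USP48 (2.42, chromosome 1, position 21701556, minus strand), USP8 (2.39, chromosome 15, position 50481856, plus strand), which acts at endosomes, and USP1 (1.39), which acts on PCNA and FANCD2. USP2-AS1 scored 1.92 in NAT10 KD (chromosome 11, position 119381894, plus strand). WT held USP36 (1.498), a nucleolar enzyme, and USP34 (1.33).

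Across the 8 genes in both lists, the highest score was in NAT10 KD for 1 (RNF167) and in WT for 7. The same split over all 222 genes in both lists is not given here, so it cannot be called particular to these genes. CCT4 and HSPB1 had more sites in WT and RNF167 more in NAT10 KD, which gives the highest score more values to come from. At the 4 bases listed in both, the score was higher in NAT10 KD for CCT4 and in WT for HSPA5, PSMC6 and HSPB1. Scores come from separate lists and their relation to depth is not stated, so these pairs do not measure a change in acetylation. The 4 shared bases were 7.14% of the 56 distinct sites, against 5.62% of all 1851. They lay in chaperone genes in 3 cases and in a proteasome gene in 1, and in 0 ubiquitin enzyme genes. Pseudogenes were named after 13 of the 26 genes in NAT10 KD and 11 of the 26 in WT, beside 246 of 845 and 249 of 883 listed genes that are pseudogenes or have one. All 4 genes with a shared base were among them. Reads from a copy may align to the parent gene, and the part of copies in these sites was not tested.

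**Figure D3:**
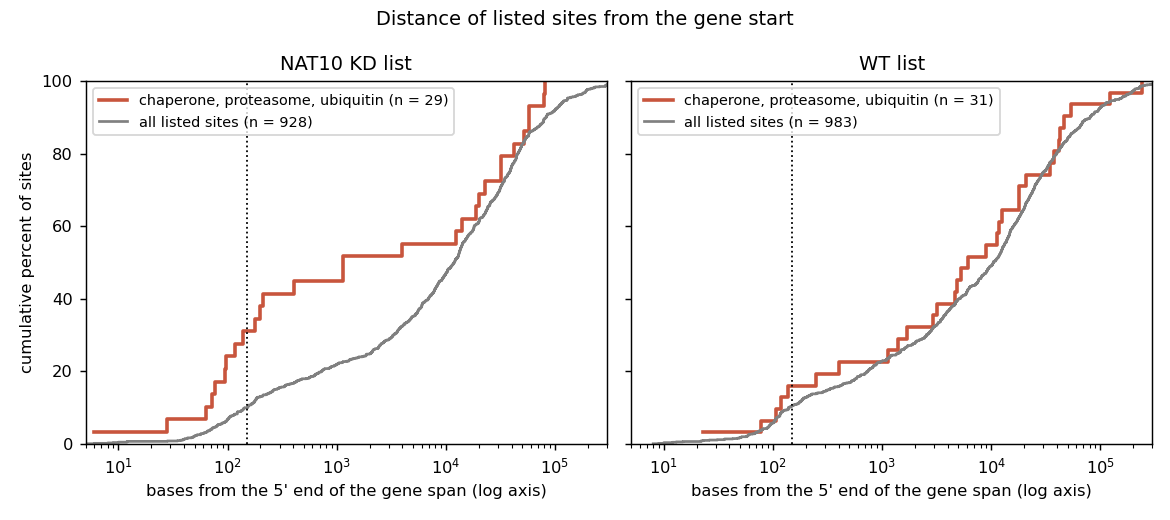
Cumulative percent of sites against the distance from the 5′ end of the gene span (log axis), for the 44 genes and for all listed sites, NAT10 KD in the left panel and WT in the right. The dotted line marks 150 bases, reached by 9 of 29 sites in NAT10 KD and 5 of 31 in WT.

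The gene start held a larger share of the sites in NAT10 KD than in WT, by less than the counting error. Within the first 150 bases of the RefSeq gene span were 9 of 29 sites in NAT10 KD, or 31.0% (Clopper-Pearson interval 15.3 to 50.8), and 5 of 31 in WT, or 16.1% (5.45 to 33.7). Over all listed sites the shares were 10% in NAT10 KD and 10.6% in WT. The NAT10 KD interval lies above its background and the WT interval includes it, while the 2 intervals overlap each other. The distance of 150 bases was chosen after the values were seen. In NAT10 KD these sites were in PSME2 (base 6), CCT7 (base 28), UCHL1 (base 63), PSMC5 (base 72), PSMC6 (base 77), RNF34 (base 94), RNF167 (base 96), USP2-AS1 (base 117) and HSPA5 (base 138). In WT they were in PSMB2 (base 23), PSMC6 (base 77), UBE2M (base 106), FBXO30 (base 119) and HSPA5 (base 138). DNAJC10, PSMD14 and the second RNF167 site in NAT10 KD, and UBE2K in WT, lay between bases 178 and 249, just beyond. A gene span starts at the outermost annotated start: the PSMC5 site is 219 bases before the start that the RefSeq promoter window uses, and the first RNF167 site 81 bases before it.

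**Figure D4:**
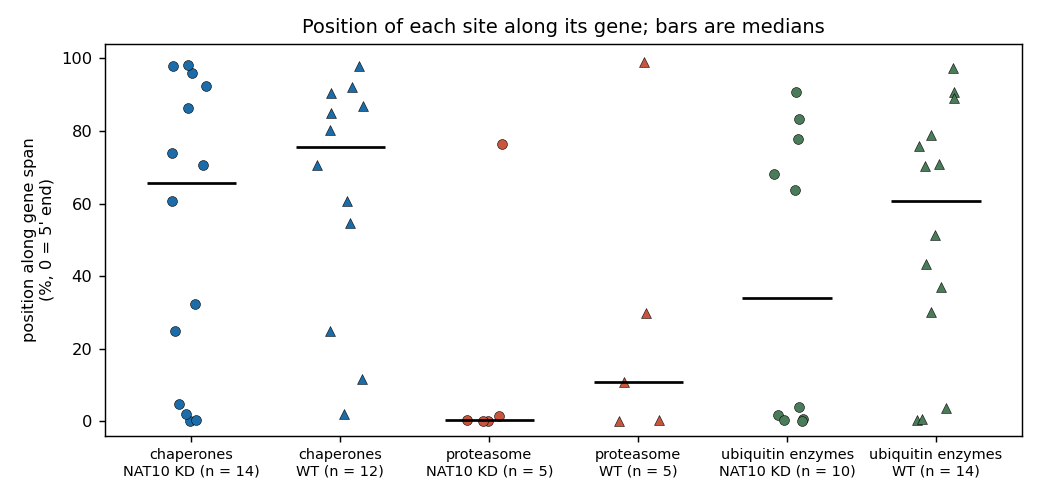
Position of each site along its gene span in percent (0 is the 5′ end), by subset, with NAT10 KD (circles) left of WT (triangles). Bars are medians, which were 0.355% in NAT10 KD and 10.8% in WT for proteasome sites.

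Along the whole span, the median position was 32.2% in NAT10 KD (order-statistic interval 1.55 to 76.6) and 60.6% in WT (29.8 to 80.3), with 62.6% and 56.9% over all listed sites. These intervals overlap widely, and among sites with a score of at least 2 the order turned, to 60.6% in NAT10 KD and 11.6% in WT. Chaperone sites had medians of 65.6% in NAT10 KD and 75.5% in WT, and ubiquitin enzyme sites 33.8% and 60.8%. The proteasome sites lay earliest: 4 of 5 in NAT10 KD were in the first 1.55% of the gene, and the fifth was that of PSMB2. The plot of positions by subset shows sites near both ends of the genes. Exons, introns and UTRs at these positions were not analysed here. At the far end were the sites of PSMB1 (99.1% in WT), DNAJB6 (98.3% in NAT10 KD) and HSPA8 (98.0% in WT). The genes were of ordinary length, with a median span of 24013 bases in NAT10 KD and 24277 in WT, beside 27521 and 26566 for all listed genes.

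Genes of the same pathways under other names were also described, from 3 lists made without the symbols above. Of 40 further chaperone genes, 9 had a site in NAT10 KD and 8 in WT, 2 of them in both. BTF3, a subunit of the nascent-chain complex, scored 25.8 in NAT10 KD only, and the HSP90 co-chaperone PTGES3 3.47 in NAT10 KD only. PDIA6, a disulfide isomerase, had the same base in both lists with 1.68 in NAT10 KD and 3.17 in WT, and the HSP90 activator AHSA1 2 sites in WT, with 2.38 and 2.02.

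Of 26 genes that serve the proteasome or the segregase p97, 5 had a site in NAT10 KD and 5 in WT, 2 of them in both. The autophagy receptor gene SQSTM1 scored 3.17 in WT only. VCP, which encodes p97, scored 1.51 in NAT10 KD and 1.39 in WT at different bases. NFE2L1, the transcription factor that raises proteasome genes, had 1 base in both lists, with 1.34 in NAT10 KD and 2.20 in WT.

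Of 87 further ubiquitin genes, 12 had a site in NAT10 KD and 7 in WT, 3 of them in both. RBX1, the RING subunit of cullin ligases, had the same base in both lists (chromosome 22, position 40951448, plus strand), with 2.67 in NAT10 KD and 5.05 in WT. ATXN3, a deubiquitinase, had a shared base with 3.06 in NAT10 KD and 1.89 in WT. The substrate receptor gene VHL had 2 sites in NAT10 KD (2.92 and 2.09), and the ligase and corepressor gene TRIM28 1 in WT (3.54). The polyubiquitin gene UBB had 1 site in NAT10 KD (1.66) and 0 in WT. Members of these lists with a site in either genotype were 37.5% of the chaperone list, 30.8% of the proteasome list and 18.4% of the ubiquitin list. The lists were made with earlier results of these data known, so these shares support no direction.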

How the data were processed

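Sites of ac4C were mapped in 8 libraries of H1 cells (4 groups of 2 replicates). Per the submitters' processing notes, fastp 0.21.1, STAR 2.7.8a, SAMtools 1.12 and the build hg38 were used. The sources used here do not give the calling, scoring or filtering of sites, or any pooling of replicates. For each genotype the authors deposited 1 list with a score per site. Every score exceeds 1.30103, which is −log10 of 0.05, by a small amount at the least, so it may be a −log10 p-value, though no source says so.

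A site is 1 base, printed 1-based. Shared sites had the same position (0 bp) and strand. All 44 genes matched the RefSeq table of GRCh38.p14 by symbol, and all their sites lay inside the gene span. Shares carry 95% Clopper-Pearson intervals, ratios exact binomial intervals and medians order-statistic intervals. In the ratio intervals a gene or site in both lists enters on each side, as if the lists were independent. No p-value was computed. Methods were tested on simulated data. Python 3.11.15, pandas 2.3.3, NumPy 2.4.6, SciPy 1.17.1 and matplotlib 3.10.9 were used.

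Members and lists were chosen with earlier results of these data known. Any member could be named. Described in full were the 5 highest per subset and list, members in both lists or with 2 or more sites in a list, and those among the 50 highest sites. Alternatives were score minimums, sites in place of genes, a 10 bp tolerance, and leaving out genes with pseudogene copies or sites over more than 1 gene. For the last, gene spans on either strand were counted.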

Additional observations from a re-analysis of the deposited data

How the results depend on the processing

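Of 40 values computed under alternatives for 8 results, 26 stayed within 1.5 times a reported count or inside the 95% interval of a ratio or median, and 14 did not. For scores the median judged was that of the genes' highest scores, whose interval is not printed here. Values far from the main one could stay inside such an interval. At a score of at least 2 the median position in NAT10 KD was 60.6% in place of 32.2%, and the median score in WT 3.39 in place of 2.39. No paired analysis was possible because each genotype has 1 list and no value per replicate. At a score of at least 2, genes numbered 15 in NAT10 KD and 15 in WT, with 4 in both, and the median position in WT was 11.6%. At 1 above the lowest listed score they numbered 12 and 13, with 3 in both, and the medians of the genes' highest scores, 2.16 in NAT10 KD and 2.39 in WT over all members, were 2.67 and 3.43. Without genes that have a pseudogene copy, 13 and 15 genes were left, with 3 in both, and the order of the median scores turned, to 2.09 in NAT10 KD and 1.70 in WT. It turned also over all sites of the genes (2.09 and 1.88). Counting by identical site left 4 genes in both lists, and sites within 10 bp also 4. In these alternatives, other than the one over all sites of the genes, fewer sites or genes enter by construction. The ratio of NAT10 KD to WT stayed between 0.867 and 1.05. With the first 100 bases of the gene span in place of 150, 7 of 29 sites in NAT10 KD (24.1%, 10.3 to 43.5) and 2 of 31 in WT were near the start, against 6.79% and 5.80% of all sites. With 250 bases they were 12 (41.4%, 23.5 to 61.1) and 6, against 14.2% and 14.0%. Without genes with a pseudogene copy, 5 of 15 sites in NAT10 KD lay in the first 150 bases (33.3%, 11.8 to 61.6) and 2 of 16 in WT. The settings on the gene start, on USP2-AS1 and on overlapping genes in the counts were chosen after seeing the data. Depth behind the sites is unknown, so what it limits cannot be stated.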

Other observations

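The pathway genes under other names had shares of sites at the gene start close to those of all listed sites. Of their 30 sites inside a gene span in NAT10 KD, 3 lay in the first 150 bases, and of 25 in WT also 3, beside 10% and 10.6% of all listed sites. In NAT10 KD these were the sites of BTF3 (base 111), RBX1 (base 71) and VHL (base 103), and in WT the 2 of UFD1 (bases 74 and 8), a p97 cofactor, and the same RBX1 site. The median score of these genes was 1.66 in NAT10 KD and 1.64 in WT, below the medians of both whole lists.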
